A study of Mus musculus with 13 samples.

Results

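The S100 genes examined here were the 10 members S100a1, S100a4, S100a6, S100a8, S100a9, S100a10, S100a11, S100a14, S100a16 and S100g, found by gene symbol among the 32285 genes of the count matrices. The matrices held 17 S100 family genes, and the other 7 (S100a2, S100a3, S100a5, S100a7a, S100a13, S100b and S100z) served as a comparison list. S100 proteins are small calcium-binding proteins of the EF-hand type that mostly act as dimers, changing shape when calcium rises and then binding a partner protein. S100a8 and S100a9 pair to form calprotectin, the alarmin that neutrophils carry in their cytosol and release in inflamed gut. S100a10 binds annexin A2, S100a11 binds annexin A1, S100a4 binds non-muscle myosin, and S100g (calbindin-D9k) carries calcium through the cytosol of absorptive epithelium under control of the vitamin D receptor.

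The data were single-cell RNA sequencing of 10 colon tumors and 3 samples of adjacent mucosa from 3 mice of genotype ApcMin/+; p16cis/cis on the C57BL/6J strain. ApcMin/+ is the heterozygous Apc mutation that gives mice intestinal tumors, and p16cis/cis is the homozygous engineered allele at the p16 locus that promotes its promoter methylation. Every mouse received the supplemented diet, so no diet or genotype was compared and each value below belongs to this diet and these alleles. Tumors 1 to 4 and mucosa 1 came from mouse C at 20 weeks, tumors 5 to 8 and mucosa 2 from mouse A at 24 weeks, and tumors 9 and 10 and mucosa 3 from mouse B at 23 weeks. Tumors of 1 mouse were not independent animals, and p-values over libraries measure the spread between libraries. Mucosa was dissociated with EDTA and TrypLE and tumors with a tumor dissociation kit, so tissue and dissociation cannot be told apart.

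After filtering, 109915 cells of 137591 barcodes remained, 86691 from tumors and 23224 from mucosa, at 57221300 to 93157039 unique molecular identifiers (UMIs) per tumor library and 84883382 to 116133079 per mucosa library. Barcodes over the mitochondrial limit were 4.29% to 11.5% per tumor library and 14.3% to 28.9% per mucosa library. Median UMIs per retained cell were 3612 to 5048 in tumors and 7521 to 10000 in mucosa, so quality and depth moved with tissue. The labels called 7 libraries female and 6 male, with both sexes under the same animal code, yet 4 Y-linked genes together reached 104 to 129 CPM (UMIs scaled to a total of 1000000) in all 13 libraries and Xist at most 0.124 CPM. Sex was therefore not used. Any pair of libraries shared 14 to 61 cell barcodes. Cells were clustered without any S100 gene and classes were named "-like" from marker genes. The largest tumor classes were neutrophil-like (27273 cells), tumor epithelial-like (13550), C1q+ macrophage-like (7830) and Spp1+ macrophage-like (7549), whereas mucosa held 81 neutrophil-like and 40 tumor epithelial-like cells. The Spp1+ macrophage-like class was cluster 3, led by Inhba, Il1a and Nos2, which also scored for Ly6c+ monocyte markers (2.70, against 3.26 for its own list). Spp1 itself was among the leading genes of C1q+ macrophage-like cluster 4 and not of cluster 3. The name thus rests on the whole marker list and not on Spp1. Counts came from transcript 3' ends, so CPM was not divided by gene length, and levels are compared across cells for 1 gene at a time.

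Of the 10 members 9 lie on mouse chromosome 3, in 2 stretches (mm10, GENCODE vM21 annotation). S100a1 (3:90511034-90514392, minus strand), S100a14 (3:90526856-90528837), S100a16 (3:90537254-90543151), S100a4 (3:90603771-90606045), S100a6 (3:90612882-90624181), S100a8 (3:90668978-90670035) and S100a9 (3:90692632-90695721, minus strand) sit close together, and S100a11 (3:93520488-93526287) and S100a10 (3:93555080-93564643) sit farther along. S100g alone is on the X chromosome (X:162961992-162964599, minus strand). The promoters of S100a8 and S100a9 are shown because these neighbours shared their leading cell class. RefSeq (GRCm38.p6) gave a promoter for 8 of the 10 members, as windows of 300 bases that begin 250 bases before the RefSeq start and run past it. Below are the 250 bases before the RefSeq start of S100a8 (chr3:90668821-90669070, plus strand) and of S100a9 (chr3:90695722-90695971, minus strand), 5' to 3', with capitals marking any match on either strand to TATAAA, to the ETS core GAGGAA, to the C/EBP half-site GCAAT, to the STAT motif TTCNNNGAA or to the AP-1 motif TGANTCA.
S100a8: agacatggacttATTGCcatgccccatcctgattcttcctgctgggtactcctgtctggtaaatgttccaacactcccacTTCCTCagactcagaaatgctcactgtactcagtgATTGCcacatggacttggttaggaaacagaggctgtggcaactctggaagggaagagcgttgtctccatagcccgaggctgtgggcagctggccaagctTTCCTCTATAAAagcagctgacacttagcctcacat
S100a9: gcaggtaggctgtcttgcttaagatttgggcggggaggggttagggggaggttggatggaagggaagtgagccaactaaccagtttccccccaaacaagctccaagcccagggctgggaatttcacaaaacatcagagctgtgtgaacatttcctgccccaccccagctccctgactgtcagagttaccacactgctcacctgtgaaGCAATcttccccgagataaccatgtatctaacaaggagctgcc
The C/EBP half-site was found in S100a8 (2 matches), S100a9 and S100g, and in 26.4% of 32851 RefSeq promoter windows of the same 300 bases. The ETS core was found in S100a4, S100a8, S100a11 and S100a16 and in 28.3% of all promoters, where 1 of the 2 matches in S100a8 directly precedes the TATAAA match. The AP-1 motif was found in S100a11 and S100a16 (7.81% of all promoters). S100a16 had 2 windows, so 9 windows stood for 8 genes, and its ETS and AP-1 matches lay in different ones, while the background counts each window. The STAT motif was found in no member (8.30%). These matches describe letters, not binding. The RefSeq start of S100a8 lies downstream of the start of its GENCODE gene given above, so the last bases of its printed sequence are within that gene.

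A TATAAA element was found in 4 of the 8 members with a promoter (S100a4, S100a8, S100a9 and S100g) and in 13.6% of all promoters. The element is shown in capitals within 30 bases for the 3 of these 4 not yet shown with it, since they include the leading genes of neutrophil-like and Ly6c+ monocyte-like cells and S100g, which varied widely between samples below. They are S100a4 (chr3:90603727-90603756, plus strand), S100a9 (chr3:90695704-90695733, minus strand) and S100g (chrX:162964582-162964611, minus strand).
S100a4: ggcctggcagggTATAAAtaggtcagattg
S100a9: caaggagctgccTATAAAtactgggcttac
S100g: gtctgtaaagacTATAAAagagcccctcct
In S100a9 and S100g the element begins at the RefSeq start itself, whereas it begins 31 bases before the start of S100a4 and 30 bases before that of S100a8.

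Each member had its own order of cell classes in the tumors, read over the 13 classes with at least 20 cells in at least 6 tumors. S100a8, S100a9 and S100a11 were highest in neutrophil-like cells, S100a4 in Ly6c+ monocyte-like cells, and S100a1, S100a6, S100a10, S100a14, S100a16 and S100g in absorptive epithelial-like cells. Together the 10 genes made up 3.24% ± 0.0757 of all UMIs in tumors (SD, n = 3 mice) and 0.456% ± 0.0873 in mucosa. In neutrophil-like cells of the tumors they made up 21.5% ± 2.44 of all UMIs, of which S100a8 and S100a9 gave 20.0% ± 2.15. In the 2 mucosa libraries with at least 20 neutrophil-like cells the share was 15.4% and 22.5%, overlapping the 17.9% to 25.8% of the tumors. Levels written as a mean ± SD average the tumors within a mouse first, and the SD is that between the 3 mouse averages. Leading levels in absorptive epithelial-like cells depended on the clustering: at Leiden resolution 2, 1565 of the 2490 tumor cells of this class fell in a cluster led by Defb45 and Gsdmc4 that the absorptive markers did not place in it. In the tumor cells that kept the name there, S100a6, S100a10, S100a14, S100a16 and S100g stood at 21503, 4514, 1564, 1280 and 54.4 CPM, each over 1.5 times the level given for it below.

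**Figure D1:**
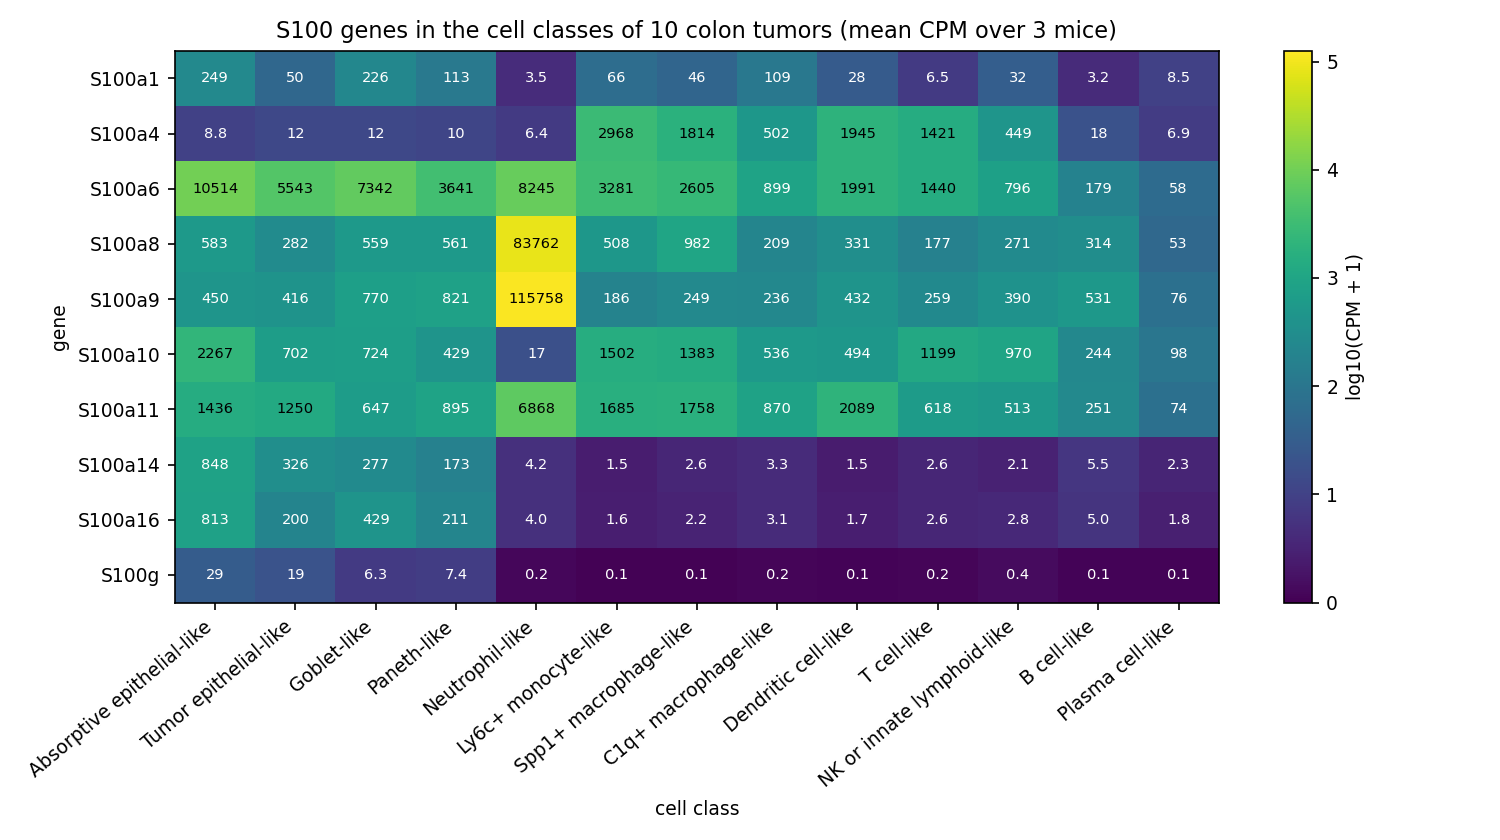
Mean CPM of each of the 10 S100 genes (rows) in each cell class of the tumors (columns), on a log color scale, as a mean over 3 mice. S100a8 reaches 83762 CPM and S100a9 115758 CPM in neutrophil-like cells, while S100a10 is lowest there at 16.6 CPM.

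To ask how tumors differed from adjacent mucosa, UMIs were summed per library and tested with edgeR's quasi-likelihood test, with p-values adjusted over all genes tested. The fits scaled library totals by normalization factors (TMM), and the printed CPM did not. A fitted fold change can therefore differ from the ratio of the CPM beside it. In sums over all retained cells, 7 of the 10 members differed, 5 higher and 2 lower in tumors, on a background where 70.7% of 17480 genes were called (36.4% higher and 34.3% lower). In sums over epithelial clusters 6 of 10 differed, 5 higher and 1 lower, against 64.2% of genes called (33.8% higher, 30.4% lower). In both sums the share called among the members was thus near the background. Their median log2 fold change was 0.65 in all cells and 1.06 in epithelium, with medians of 0.02 and 0.04 over all genes. The epithelial sums held mostly different cells by tissue. Tumor epithelial-like cells numbered 13550 in tumors and 40 in mucosa, and crypt epithelial-like cells 194 and 4963. Differences in these sums therefore mix cell makeup with levels within a cell type. In absorptive epithelial-like cells 8 of 10 members differed, 6 higher and 2 lower, against 54.2% of genes (27.2% higher, 27.0% lower). This class joined clusters 11 and 14, filled unequally by tissue, and cluster 11 alone gave 3 members and 1587 genes called. In goblet-like cells 3 of 9 did, all higher, against 5.56% (4.16% higher, 1.39% lower). In B cell-like cells 4 of 6 members differed, 2 in each direction, against 39.4% of genes (19.1% higher, 20.3% lower). In NK or innate lymphoid-like cells 3 of 6 differed, all higher, against 30.3% (17.2% higher, 13.1% lower). Among the 3 were S100a8 and S100a9, which had 0 UMIs in mucosa there and could only be called higher. In plasma cell-like cells 4 of 9 did, 2 in each direction, against 29.5% (14.4% higher, 15.0% lower), and in T cell-like cells 4 of 8, 3 higher and 1 lower, against 21.8% (12.0% higher, 9.86% lower). S100a8 and S100a9 were among the members called in each of these 8 tumor against mucosa fits. In plasma cell-like, T cell-like and B cell-like cells mucosa gave only 0, 1 and 2 UMIs of S100a8 and 4, 3 and 7 of S100a9. As in NK or innate lymphoid-like cells, both passed the count filter there through the tumors and could only be called higher. The same holds for the 3 calls in goblet-like cells (S100a4, S100a8 and S100a9). Goblet-like cells of mucosa gave 14 UMIs of S100a8 and 9 of S100a9, and little S100a4. The member counts above include these calls, which are no separate support. A test of whether the log2 difference, tumor over mucosa, itself differed between epithelial and T cell-like sums called 3 of 10 members, against 21.5% of genes. The difference was more positive in epithelium for all 3 (9.44% of genes), at 3.39 against 1.24 for S100a4, 1.15 against -0.02 for S100a11 and -0.18 against -2.28 for S100a16, so that of S100a16 came with a decrease in T cell-like cells and no call in epithelium. None of the other 7 was called (edgeR adjusted p from 0.0651 for S100a14 to 0.963 for S100a9), and edgeR's unadjusted p was below 0.05 for 1 of them. S100a14 was called without mucosa 1, tumor 1 or tumor 10 (edgeR adjusted p = 0.0281, 0.0389 and 0.0482), and S100a10 without tumor 10 (edgeR adjusted p = 0.0326).

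**Figure D2:**
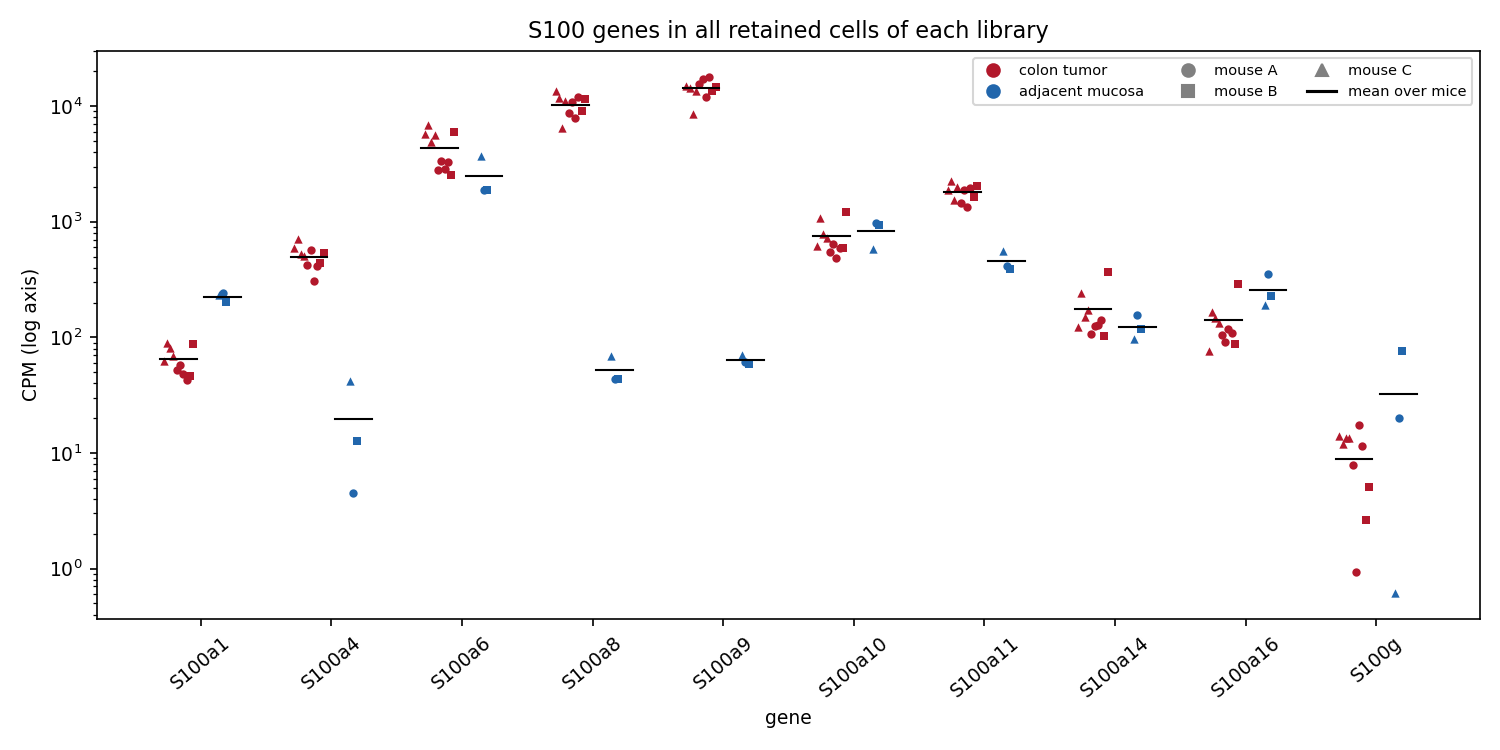
CPM of the 10 S100 genes in all retained cells of each library on a log axis, with tumors in red, mucosa in blue, a marker shape for each mouse and a bar at the mean over mice. Every tumor lies above every mucosa sample for S100a4, S100a8, S100a9 and S100a11, and below them for S100a1.

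S100a8 and S100a9, the 2 subunits of calprotectin, were almost confined to neutrophil-like cells. In the tumors these cells held 96.9% ± 0.407 of S100a8 UMIs and 97.9% ± 0.0996 of S100a9 UMIs (SD, n = 3 mice). S100a8 stood at 83762 ± 15874 CPM in neutrophil-like cells, and the next class, Spp1+ macrophage-like cells, had 982 ± 287 CPM. S100a9 stood at 115758 ± 5878 CPM, and the next class, Paneth-like cells, had 821 ± 340 CPM. The gap between the first class and the next exceeded the spread between tumors for both genes, whereas no neighbouring pair of classes below it separated beyond that spread. Tuft-like cells, outside this order, reached 20 cells in tumor 6 only, where 36 cells held 2714 CPM of S100a8 and 4080 CPM of S100a9. In the mucosa, neutrophil-like cells held 82.6% ± 9.12 of S100a8 UMIs, and absorptive epithelial-like cells held 14.8%.

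Over all retained cells S100a8 ranged from 6530 to 13610 CPM over the 10 tumors, with a median of 10905, and was 43.3, 43.6 and 69.1 CPM in the 3 mucosa samples. S100a9 ranged from 8582 to 18033 CPM with a median of 14496, against 58.4, 61.1 and 69.8 CPM in mucosa. No tumor came near any mucosa sample for either gene. S100a8 was 203-fold higher in tumors (log2 fold change 7.67, SE 0.38, edgeR adjusted p = 3.17e-09) and S100a9 231-fold higher (7.85, SE 0.33, edgeR adjusted p = 1.23e-09). The share of neutrophil-like cells moved with these values: it was 22.7% to 38.8% of cells in tumors (median 31.3%) and 0.241%, 0.271% and 0.471% in mucosa. In the 2 mucosa samples where they could be measured, neutrophil-like cells held 52902 and 82494 CPM of S100a8, the former below and the latter within the tumor range of 62453 to 107410. More neutrophil-like cells and more transcript in other cells are mixed in such whole-sample sums.

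The 3 neutrophil-like clusters differed in these genes, as a description without a test. Clusters 0 and 1 held 98401 and 76498 CPM of S100a8 in tumors, and the smaller cluster 17 held 28890 CPM. S100a9 followed the same order at 132478, 108831 and 30929 CPM, as did S100a11 at 7685, 6623 and 2157 CPM. Cluster 17 was therefore the neutrophil-like group poorest in all 3 transcripts.

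Both calprotectin genes were also higher in tumors within every class that could be tested. In epithelial clusters S100a8 ranged from 108 to 591 CPM over tumors (median 380) against 5.79, 6.55 and 11.6 CPM in mucosa (log2 fold change 5.20, SE 0.55, edgeR adjusted p = 4.47e-06). S100a9 ranged from 156 to 701 CPM (median 452) against 0.223, 1.29 and 6.85 CPM (7.05, SE 1.01, edgeR adjusted p = 4.75e-05). The size of both differences was uncertain: S100a9 was at 8.91 without mucosa 2, and S100a8 at 6.41 with doublets kept. No tumor overlapped the mucosa for either gene. Goblet-like cells went from 0, 0.648 and 1.13 CPM of S100a8 in mucosa to 21.5 to 2227 CPM in 8 tumors (9.98, SE 1.42, edgeR adjusted p = 6.00e-04). S100a9 went from 0.208, 0.259 and 0.753 CPM to 25.6 to 2492 CPM there (edgeR adjusted p = 3.18e-04), and like S100a8 it could only be called higher. It was also called in B cell-like cells (120 to 1945 CPM in tumors, at most 7.43 in mucosa), plasma cell-like cells (19.3 to 175 CPM, at most 2.59) and T cell-like cells (58.8 to 607 CPM, at most 3.56). B cell-like cells of mucosa gave 2 S100a8 UMIs in 1083 cells, and those of tumors 75.3 to 1151 CPM (median 244). In T cell-like cells S100a8 was 43.1 to 370 CPM in tumors (median 171), and mucosa gave a single S100a8 UMI in 743 cells. Plasma cell-like cells of mucosa had no S100a8 UMI in 421 cells, so the tumor mean of 52.8 CPM was at least 65.8-fold higher, taking 3 counts over the mucosa group as the floor. NK or innate lymphoid-like cells of mucosa had none of either gene, giving at least 77.2-fold for S100a8 and at least 111-fold for S100a9 on the same floor, and at least 52.3-fold and at least 67.1-fold without tumor 5, the highest.

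RNA of neutrophil marker genes moved with these increases. A list of 8 neutrophil markers (Csf3r, Cxcr2, Retnlg, Mmp9, Il1r2, Hdc, Trem1 and Clec4d) was higher in tumors for 8 of 8 genes in epithelial sums, where 33.8% of all genes were higher. Its summed level there was 34.9 to 204 CPM over tumors and 0.111 to 0.401 CPM over mucosa, with none of the 8 at 0. In T cell-like cells the list reached 126 to 321 CPM in tumors and 6.47 to 23.2 CPM in mucosa, where 4 of the 8 were at 0. When each cell was thinned to 500 UMIs, S100a8 was seen in 98.3% ± 0.840 of neutrophil-like cells, 5.70% ± 1.81 of tumor epithelial-like cells and 5.54% ± 2.48 of T cell-like cells of the tumors. Unthinned, these shares were 99.2%, 39.8% and 26.1% at median depths of 2624.5, 11204.5 and 3454 UMIs. The part of RNA from neutrophils in the signal of other classes was not tested.

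The ratio of S100a8 to S100a9 UMIs differed between classes, each tumor serving as its own reference. In neutrophil-like cells the ratio ran from 0.546 to 0.900 over the 10 tumors with a median of 0.708. T cell-like cells (0.547 to 0.906), tumor epithelial-like cells (0.559 to 0.864) and plasma cell-like cells (0.545 to 0.861) covered the same range, each being above its own tumor's neutrophil-like ratio in 5 of 10 tumors. B cell-like cells (0.507 to 0.776) were above it in 1 of 10, Paneth-like cells in 3 of 8, goblet-like in 5 of 8, NK or innate lymphoid-like in 7 of 10 and dendritic cell-like in 8 of 10. Spp1+ macrophage-like cells had ratios of 1.67 to 10.3 (median 3.93) and Ly6c+ monocyte-like cells 1.60 to 5.12 (median 3.21), above the neutrophil-like ratio in 10 of 10 tumors. Absorptive epithelial-like cells had ratios of 0.803 to 2.99 (median 1.39), also above it in 10 of 10, as did C1q+ macrophage-like cells at 0.633 to 1.35.

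**Figure D3:**
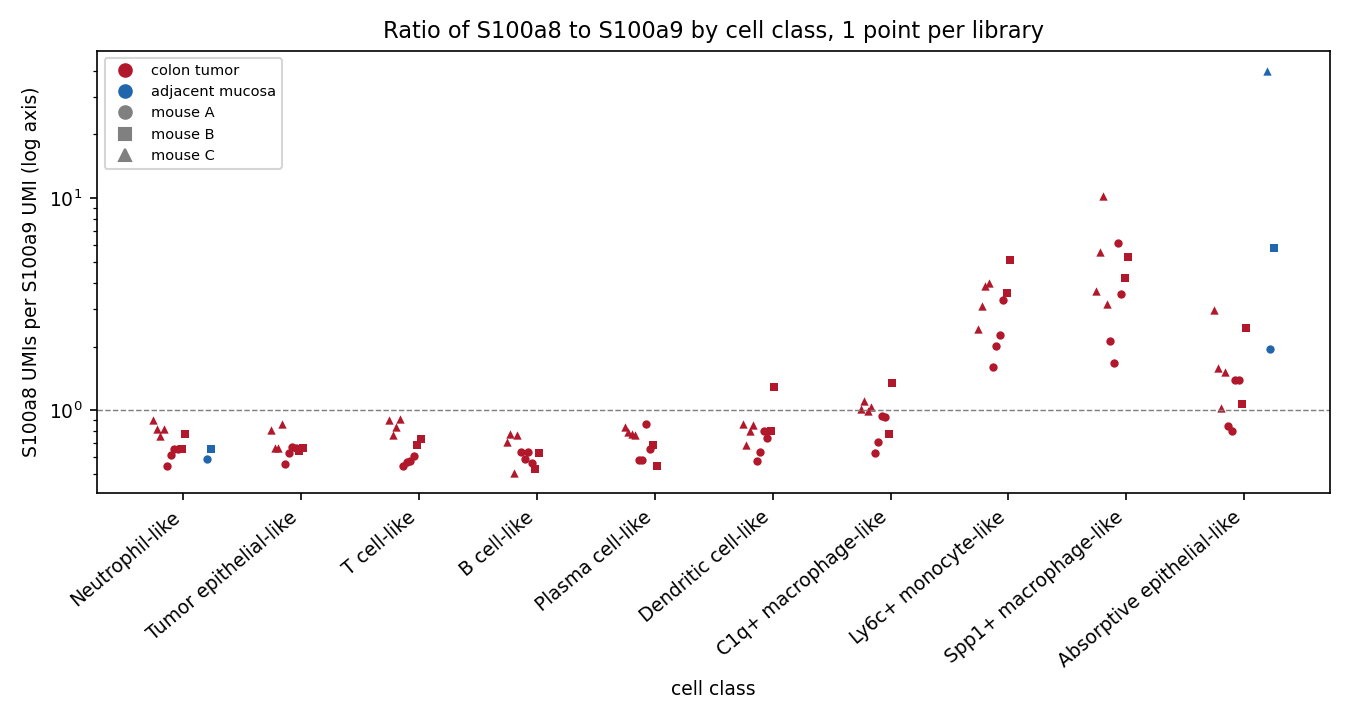
Ratio of S100a8 to S100a9 UMIs (log axis) by cell class, with 1 point per library that has at least 20 UMIs of both genes together. Spp1+ macrophage-like and Ly6c+ monocyte-like cells lie at 1.60 or above in every tumor, and neutrophil-like cells at 0.900 or below.

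Cells rich in S100a8 differed between these classes in the same way. Of 7549 Spp1+ macrophage-like cells in tumors, 546 held 10 or more S100a8 UMIs, and 228 of these had no S100a9 UMI. Of 6140 Ly6c+ monocyte-like cells 342 did, with 120 lacking S100a9. Among 13550 tumor epithelial-like cells 320 did, and only 1 of them lacked S100a9. Those 320 cells also carried 18030 UMIs of the neutrophil marker list, beside 52548 UMIs of S100a8 and 74659 of S100a9. The 546 Spp1+ macrophage-like cells carried 4574 UMIs of that list beside 35374 of S100a8, and the 342 Ly6c+ monocyte-like cells 2033 beside 13461. In phagocyte classes the list may not measure neutrophil RNA alone. In mucosa 3, 22 dendritic cell-like cells held 36 UMIs of it (283 CPM), with 0 UMIs of S100a8 or S100a9. There 32 C1q+ macrophage-like cells held 17 UMIs of it (121 CPM), again with 0 of either gene. These are few cells of 1 library, and of neither phagocyte class named above. Absorptive epithelial-like cells of tumors had 244 such cells of 2490, 51 of them without S100a9, carrying 3482 UMIs of the list beside 22192 of S100a8. T cell-like cells had 32 such cells of 6502, none without S100a9. Whether cells captured together with a neutrophil account for any of these groups was not tested.

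In the mucosa, absorptive epithelial-like cells carried S100a8 with almost no neutrophil marker RNA. Mucosa 1 had 359 S100a8 UMIs, 9 S100a9 UMIs and 3 UMIs of the neutrophil list in 178 such cells, a ratio of 39.9. Mucosa 2 had 900, 462 and 8 UMIs in 2014 cells (ratio 1.95), and mucosa 3 had 548, 94 and 5 in 1402 cells (ratio 5.83). The ratio was thus above the neutrophil-like range of the tumors in each mucosa sample. Most of this signal sat in few cells: 37 of 3594 cells held 10 or more S100a8 UMIs and together 81.8% of the class's S100a8, with 438 S100a9 UMIs and 1 UMI of the neutrophil list. In mucosa 1 the signal lay in cluster 14, where 134 cells held 349 S100a8 and 4 S100a9 UMIs, whereas in the other samples cluster 11 held most of it, 735 of 900 S100a8 UMIs in mucosa 2 and 491 of 548 in mucosa 3. Within absorptive epithelial-like cells tumors were higher again, at 129 to 1001 CPM of S100a8 (median 560) against 30, 47.8 and 125 CPM in mucosa (log2 fold change 2.61, SE 0.58, edgeR adjusted p = 0.00145, and 3.42 without mucosa 1). The lowest tumor was only just above the highest mucosa sample. S100a9 rose more in these cells, from 3.14, 5.15 and 24.5 CPM in mucosa to 125 to 939 CPM in tumors (4.73, SE 0.82, edgeR adjusted p = 1.88e-04, 6.20 without mucosa 2 and 3.46 in cluster 11 alone), beside a neutrophil list at 0.274 to 1.05 CPM in mucosa and 14.3 to 245 CPM in tumors.

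S100a4, a partner of non-muscle myosin known from motile and mesenchymal cells, was a gene of mononuclear phagocytes and T cells here. It was highest in Ly6c+ monocyte-like cells at 2968 ± 452 CPM, followed by dendritic cell-like (1945 ± 586), Spp1+ macrophage-like (1814 ± 374) and T cell-like cells (1421 ± 401). Dendritic and Spp1+ macrophage-like cells did not separate beyond their spread, with the former higher in 6 of 10 tumors. Neutrophil-like cells, which led for 3 other members, had the lowest mean of all classes at 6.40 ± 2.28 CPM, not separated from plasma cell-like cells at 6.94 ± 3.85 CPM. After thinning to 500 UMIs, S100a4 was seen in 71.1% ± 4.67 of Ly6c+ monocyte-like cells and 0.319% ± 0.102 of neutrophil-like cells (unthinned 97.5% and 1.52%). Among T cell-like cells cluster 8 held 1791 CPM and cluster 18 held 210 CPM, as a description.

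In whole samples S100a4 was 307 to 712 CPM in tumors (median 514) and 4.54, 12.8 and 42.0 CPM in mucosa. No groups overlapped, and the gene was 26.3-fold higher in tumors (log2 fold change 4.72, SE 0.59, edgeR adjusted p = 9.54e-06, and 5.86 without mucosa 1), beside a median of 6.45% Ly6c+ monocyte-like cells in tumors and 0.330% in mucosa. Within T cell-like cells it was 957 to 2068 CPM in tumors (median 1404) and 453, 680 and 919 CPM in mucosa, again without overlap (1.24, SE 0.28, edgeR adjusted p = 0.00371). The call did not hold in cluster 8 alone (0.77, edgeR adjusted p = 0.0729), which held 4718 of 6502 T cell-like cells in tumors and 417 of 743 in mucosa. There tumors had 1291 to 2510 CPM and mucosa 754, 1040 and 1858 CPM, and in cluster 18 tumors had 41.1 to 485 CPM and mucosa 194, 202 and 320 CPM, both overlapping. The class leaves out the unnamed cluster 9, led by T cell receptor gamma genes, with 3899 mucosal cells at 42.7, 61.0 and 167 CPM of S100a4. The 3 highest T cell-like values, 1887 to 2068 CPM, belonged to tumors 1 to 3 of mouse C. NK or innate lymphoid-like cells rose as well, from 118, 196 and 343 CPM to 311 to 731 CPM (1.02, SE 0.29, edgeR adjusted p = 0.00928), where the groups overlapped and the call was lost without mucosa 2 (edgeR adjusted p = 0.0695) or mucosa 3. In epithelial clusters it rose from 0.559, 0.815 and 1.32 CPM to 6.89 to 17.7 CPM (3.39, SE 0.38, edgeR adjusted p = 6.17e-06), levels far under those of phagocytes. These clusters were mostly tumor epithelial-like cells in tumors and other epithelium in mucosa. Absorptive epithelial-like cells had 0.478, 0.547 and 2.79 CPM in mucosa and 2.63 to 27.9 CPM in tumors (3.23, SE 0.81, edgeR adjusted p = 0.00349, and 3.83 without mucosa 1), where the lowest tumor lay under the highest mucosa value, with no call in cluster 11 alone (2.15, edgeR adjusted p = 0.13). Goblet-like cells had 0, 1.25 and 2.07 CPM in mucosa and 0 to 53.9 CPM in 8 tumors, an overlapping difference (3.86, SE 0.92, edgeR adjusted p = 0.0204) whose call was lost with mouse as a block (edgeR adjusted p = 0.0541), with DESeq2 (adjusted p = 0.0583) and without mucosa 1, 2 or 3 (edgeR adjusted p = 0.0515, 0.0844 and 0.0588). The increase was larger in epithelial than in T cell-like sums by 2.12 on the log2 scale (SE 0.19, edgeR adjusted p = 3.66e-07), with all T cell-like clusters summed. The epithelial levels were low: in the tumor class order no neighbouring pair from B cell-like (18.3 CPM) through tumor epithelial-like (11.9 CPM) to neutrophil-like cells (6.40 CPM) separated beyond its spread. The part of RNA from other cells in the epithelial increase was not tested.

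S100a6, calcyclin, was abundant in epithelium and in neutrophil-like cells. It was highest in absorptive epithelial-like cells at 10514 ± 2561 CPM, then in neutrophil-like (8245 ± 2115), goblet-like (7342 ± 1230) and tumor epithelial-like cells (5543 ± 2106), and lowest in plasma cell-like cells at 58.3 ± 35.3 CPM. The first 3 classes overlapped between tumors. Summed over all cells it was 2513 to 6927 CPM in tumors (median 4133) and 1884, 1891 and 3714 CPM in mucosa. The ranges overlapped, and the difference of 0.86 on the log2 scale (SE 0.36, edgeR adjusted p = 0.0457) lost its call without mucosa 2 or 3 or without tumor 1, 2, 3, 4 or 10 (edgeR adjusted p from 0.0539 to 0.162), with no filter on low counts (edgeR adjusted p = 0.0598) and with the tumors of each mouse summed (edgeR adjusted p = 0.077). In epithelial clusters it was 3167 to 10309 CPM in tumors (median 5602) and 1963, 2027 and 4156 CPM in mucosa (0.96, SE 0.42, edgeR adjusted p = 0.0579), and with mouse as a block the edgeR adjusted p was 0.0141. It was also called with DESeq2 (adjusted p = 0.0216). Further calls came without mucosa 1, tumor 5, tumor 9 or goblet-like clusters, under 10% mitochondrial UMIs and with doublets kept (edgeR adjusted p from 0.0255 to 0.0491). No call was given by 14 of 22 alternatives. Mouse C had the highest mucosa value of the gene.

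S100a10, the annexin A2 light chain, had the smallest fitted difference of the 10 members in whole samples. It was 488 to 1205 CPM in tumors (median 631) and 583, 943 and 966 CPM in mucosa, fully overlapping (log2 fold change -0.17, SE 0.27, edgeR adjusted p = 0.591). Epithelial clusters likewise gave no call (-0.15, edgeR adjusted p = 0.733). By class it was highest in absorptive epithelial-like cells (2267 ± 178 CPM), then in Ly6c+ monocyte-like (1502 ± 213) and Spp1+ macrophage-like cells (1383 ± 233), and lowest in neutrophil-like cells at 16.6 ± 0.642 CPM. Its range in neutrophil-like cells, 12.4 to 21.0 CPM, lay under the range of each of the other 12 tumor classes. Anxa2, the gene of its partner, was present in the same neutrophil-like cells at 948 ± 37.2 CPM, so the partner was measured where S100a10 was lowest.

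S100a10 fell in tumors within 2 antibody-lineage classes. In plasma cell-like cells it was 47.8 to 200 CPM in tumors (median 88.8) and 411, 451 and 986 CPM in mucosa (log2 fold change -1.87, SE 0.34, edgeR adjusted p = 8.03e-04). Anxa2 fell in the same cells, from 181, 223 and 458 CPM to 7.15 to 53.2 CPM (-2.93, SE 0.48, edgeR adjusted p = 3.56e-04). In the B cell-like class S100a10 was 168 to 360 CPM in tumors and 400, 702 and 775 CPM in mucosa (-1.30, SE 0.21, edgeR adjusted p = 5.35e-05). None of these ranges overlapped. The makeup of both classes differed by tissue: at Leiden resolution 2, 379 of 1083 mucosal and 53 of 4547 tumor B cell-like cells, and 83 of 421 mucosal and 148 of 3535 tumor plasma cell-like cells, fell in a cluster with markers of both classes. In the largest finer cluster of each class alone S100a10 was still called, at -1.85 in plasma cell-like (edgeR adjusted p = 0.00564) and -0.81 in B cell-like cells (edgeR adjusted p = 0.00408). S100a11 fell in the same classes by less, by 0.66 on the log2 scale in plasma cell-like cells (SE 0.18, edgeR adjusted p = 0.0114) and by 0.53 in B cell-like cells (SE 0.15, edgeR adjusted p = 0.00861), calls that were lost without mucosa 1 (edgeR adjusted p = 0.124) and without mucosa 3 (edgeR adjusted p = 0.081), respectively, and in the finer cluster alone in both classes (-0.79, edgeR adjusted p = 0.0543, and -0.20, edgeR adjusted p = 0.422). An epithelial marker list (Epcam, Krt8, Krt18, Krt19, Cdh1 and Cldn7) reached 79.3 to 518 CPM in mucosal and 141 to 303 CPM in tumor plasma cell-like cells, and 187 to 1050 against 54.0 to 536 CPM in B cell-like cells. Its part in the decreases was not tested.

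S100a11, a partner of annexin A1, was highest in neutrophil-like cells at 6868 ± 783 CPM, above dendritic cell-like cells (2089 ± 170 CPM) in 10 of 10 tumors. Neutrophil-like cells held 46.0% of its UMIs in tumors. Whole tumors had 1339 to 2250 CPM (median 1875) and mucosa 391, 416 and 563 CPM, a 4.01-fold difference without overlap (SE 0.21 on the log2 scale, edgeR adjusted p = 1.60e-06). It was also higher in the sums over epithelial clusters, from 385, 417 and 553 CPM to 736 to 1840 CPM with a median of 1209 (1.15, SE 0.28, edgeR adjusted p = 0.00270). Those sums held mostly tumor epithelial-like cells in tumors and other epithelium in mucosa. The increase was seen in absorptive epithelial-like cells as well, from 349, 385 and 416 CPM to 963 to 1907 CPM (1.45, SE 0.22, edgeR adjusted p = 6.75e-05). In T cell-like cells it was 507 to 778 CPM in tumors and 611, 766 and 778 CPM in mucosa, and the increase in epithelium exceeded the difference there by 1.12 on the log2 scale (SE 0.20, edgeR adjusted p = 3.62e-04). S100a11 was called higher in absorptive cells of cluster 11 alone as well.

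S100a14 and S100a16, 2 neighbouring genes known from epithelia, were far higher in epithelial than in immune classes. In tumors S100a14 was 848 ± 147 CPM in absorptive epithelial-like, 326 ± 72.5 in tumor epithelial-like, 277 ± 81.0 in goblet-like and 173 ± 25.1 in Paneth-like cells. Its mean was at most 5.48 CPM in any immune class of the tumors. S100a16 was 813 ± 112, 200 ± 41.3, 429 ± 41.6 and 211 ± 29.8 CPM in the same 4 classes, with a mean of at most 4.96 CPM in immune classes of the tumors. Fibroblast-like cells, measured in 3 tumors (112 cells), had 226, 317 and 352 CPM of S100a16 but 8.44, 9.40 and 16.4 CPM of S100a14. That cluster also carried endothelial markers, with Plvap and Ackr1 among its leading genes, so these are levels of a mixed group. Across the 13 tumor classes their log2 levels correlated at r = 0.995, a description over classes that share libraries. The 2 tumor epithelial-like clusters differed in both, with S100a14 at 437 CPM in cluster 2 and 168 CPM in cluster 7, and S100a16 at 259 and 114 CPM.

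The 2 genes parted between tumor and mucosa. S100a14 was 225 to 803 CPM in epithelial clusters of tumors (median 327) and 111, 129 and 165 CPM in mucosa, without overlap (log2 fold change 1.23, SE 0.37, edgeR adjusted p = 0.0101). These clusters were mostly tumor epithelial-like cells in tumors and other epithelium in mucosa. Within goblet-like cells S100a14 was at 0.31 and not called (edgeR adjusted p = 0.575). S100a16 was 194 to 625 CPM (median 258) and 221, 250 and 371 CPM, overlapping throughout (-0.18, edgeR adjusted p = 0.634). Over all cells, of which epithelium is a part, S100a16 was lower in tumors at 75.5 to 289 CPM (median 113) against 191, 230 and 354 CPM (-0.96, SE 0.32, edgeR adjusted p = 0.0161), a call lost without mucosa 2 (edgeR adjusted p = 0.141). S100a14 in all cells was 102 to 368 CPM against 96.5, 119 and 157 CPM (0.44, edgeR adjusted p = 0.291). Tumor 10 of mouse B gave the highest tumor value of both genes in both sums. It also had the most absorptive epithelial-like cells (483) and the fewest tumor epithelial-like cells (622) of the tumors, and the part of this makeup was not tested.

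Within absorptive epithelial-like cells S100a14 rose from 224, 255 and 279 CPM to 426 to 1341 CPM (log2 fold change 1.27, SE 0.32, edgeR adjusted p = 0.00334). S100a16 rose from 199, 312 and 453 CPM to 426 to 1153 CPM (0.87, SE 0.28, edgeR adjusted p = 0.0162), a call lost without mucosa 1 or mucosa 3. This class was made of cluster 11, which holds most of its tumor cells (2460 of 2490), and cluster 14, which holds most of its mucosal cells (2566 of 3594). In cluster 11 alone the difference of S100a16 was 0.09 on the log2 scale (edgeR adjusted p = 0.912), and that of S100a14 was 0.85 (edgeR adjusted p = 0.177), so neither gene was called within that cluster. In T cell-like cells S100a16 was lower in tumors, 1.16 to 3.80 CPM against 4.89, 12.5 and 38.8 CPM (-2.28, SE 0.51, edgeR adjusted p = 0.00379), beside the epithelial marker list at 64.4 to 175 CPM in tumors and 101 to 1530 CPM in mucosa. Its part in this decrease was not tested, and the call was lost without mucosa 2 (-1.41, edgeR adjusted p = 0.0732). In T cell-like cluster 8 alone S100a16 was too low to test. The difference between epithelial and T cell-like sums, 2.07 on the log2 scale (SE 0.48, edgeR adjusted p = 0.00378), was likewise lost without mucosa 2 (edgeR adjusted p = 0.067).

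**Figure D4:**
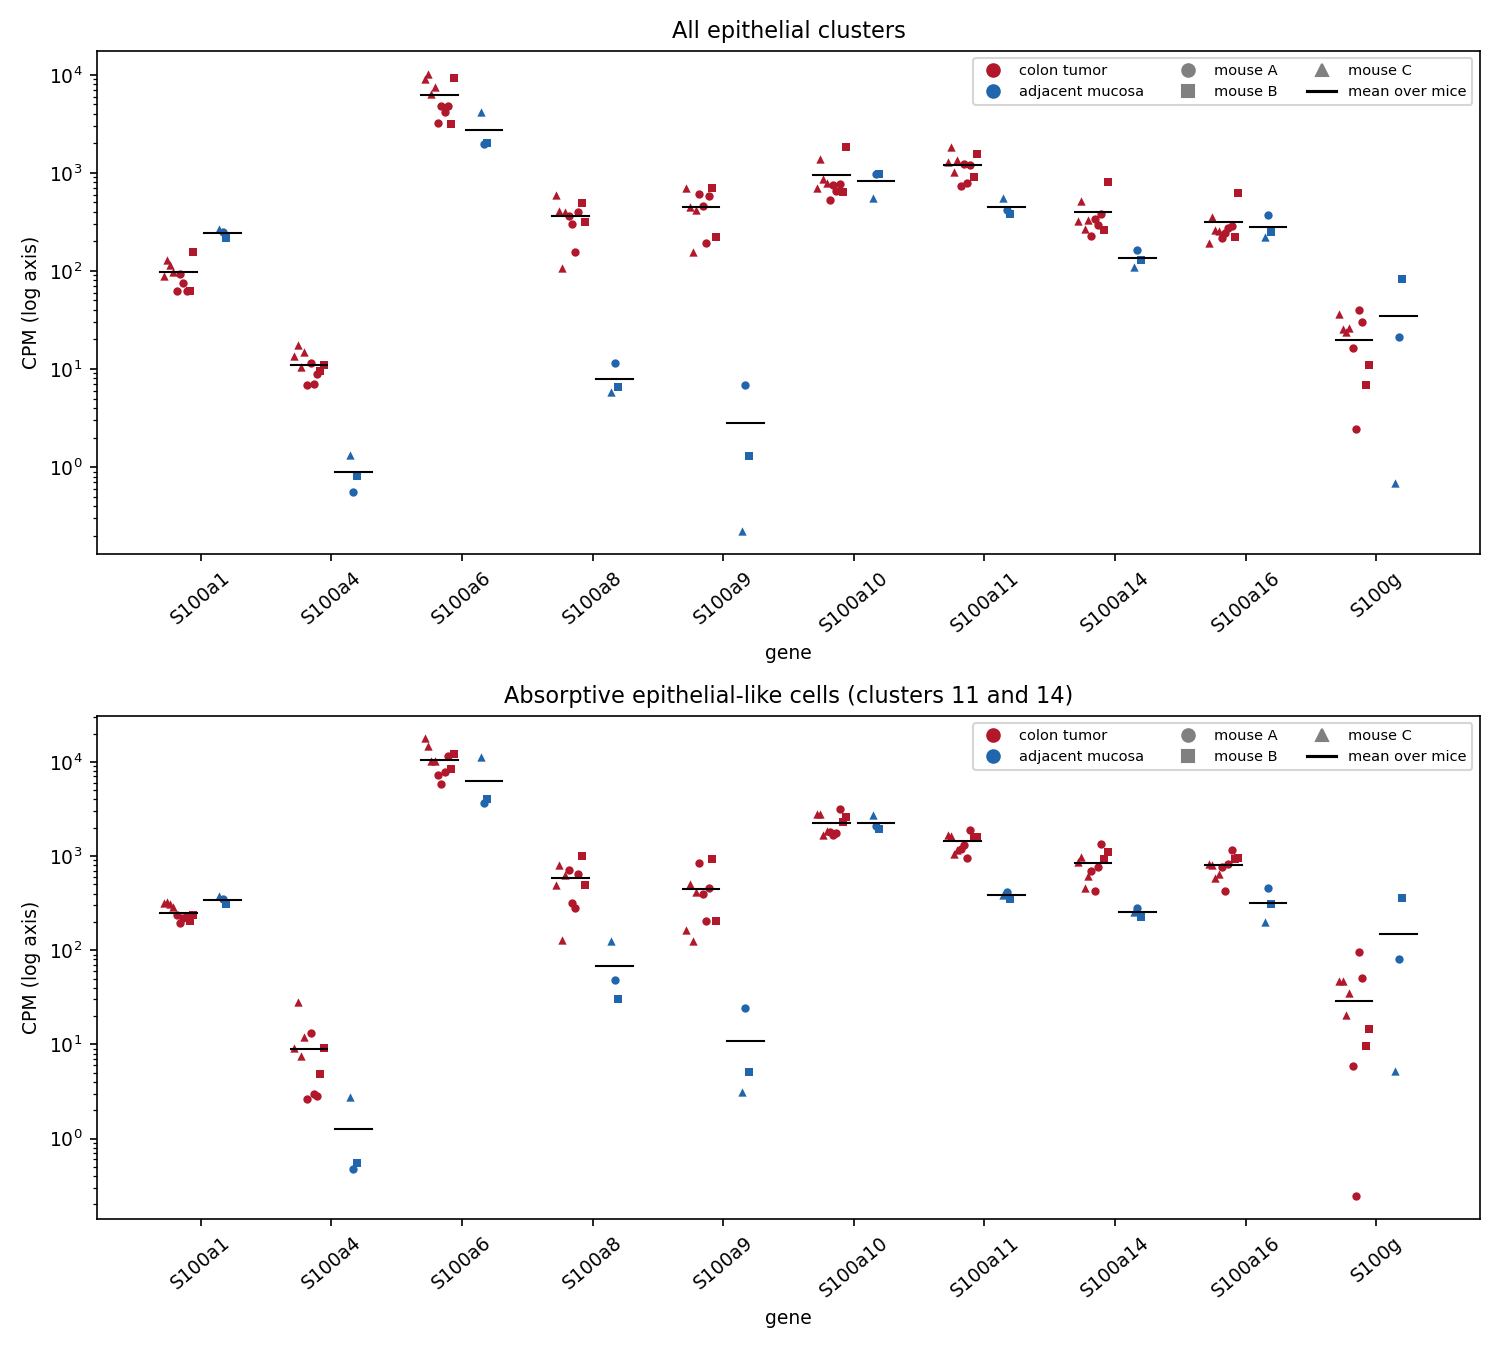
CPM of the 10 S100 genes in each library on a log axis, with tumors in red, mucosa in blue and a marker shape for each mouse. The upper panel shows all epithelial clusters and the lower panel absorptive epithelial-like cells (clusters 11 and 14). In the upper panel S100a14 lies between 225 and 803 CPM in tumors, above all 3 mucosa samples, while S100a16 overlaps.

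S100a1, best known as a regulator of calcium handling in muscle, was the member that fell most firmly in the sums over all cells and over epithelium. All retained cells together had 42.7 to 88.8 CPM in tumors (median 60.3) and 203, 232 and 240 CPM in mucosa, a level 3.47-fold lower in tumors without overlap (log2 fold change -1.80, SE 0.21, edgeR adjusted p = 3.95e-06). In epithelial clusters it was 62.3 to 155 CPM (median 91.1) against 219, 251 and 266 CPM (-1.62, SE 0.26, edgeR adjusted p = 1.05e-04), again without overlap. Both sums mix cell makeup with level, since tumor epithelial-like cells numbered 13550 in tumors and 40 in mucosa. In absorptive epithelial-like cells it was 196 to 324 CPM against 313, 347 and 375 CPM, ranges that overlapped (-0.86, SE 0.16, edgeR adjusted p = 4.39e-04). Within cluster 11 alone the difference was -0.47 (edgeR adjusted p = 0.108), and in goblet-like cells S100a1 was not called at -0.34 (edgeR adjusted p = 0.368). By class it was highest in absorptive (249 ± 51.1 CPM) and goblet-like cells (226 ± 64.5 CPM), and the 36 tuft-like cells of tumor 6 had 651 CPM. Among immune classes C1q+ macrophage-like cells led at 109 ± 11.5 CPM, above Ly6c+ monocyte-like cells (65.9 ± 4.90 CPM) in 10 of 10 tumors, and tumor epithelial-like cells had 49.9 ± 12.1 CPM.

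S100g, calbindin-D9k, varied widely between samples. It was an epithelial gene, at 29.2 ± 14.8 CPM in absorptive epithelial-like and 19.2 ± 10.4 CPM in tumor epithelial-like cells of the tumors, and at most 0.399 CPM in immune classes. Tumor epithelial-like cells held 71.8% of its UMIs in tumors. In absorptive epithelial-like cells the mucosa of mouse C had 5.23 CPM, that of mouse A 80.0 CPM and that of mouse B 355 CPM. The tumors ranged from 0.247 to 95.4 CPM with a median of 27.9, and both extremes, tumors 6 and 7, came from mouse A. Tumors of mouse C, at 20.6 to 47.2 CPM, thus lay above their own mucosa, and tumors of mouse B, at 9.60 and 14.5 CPM, lay below theirs. The fitted decrease of 2.57 on the log2 scale (SE 0.82, edgeR adjusted p = 0.0151) was lost with mouse as a block (edgeR adjusted p = 0.128) and without mucosa 3, where it was -0.90 (edgeR adjusted p = 0.455). The call was also lost in cluster 11 alone (-1.71, edgeR adjusted p = 0.127). In epithelial clusters the tumors (2.44 to 40.4 CPM) lay within the mucosal range of 0.684 to 83.4 CPM (-0.93, edgeR adjusted p = 0.334). Over all retained cells tumors had 0.927 to 17.5 CPM and mucosa 0.616, 20.2 and 76.7 CPM (-1.72, SE 0.81, edgeR adjusted p = 0.0713), a difference called without mucosa 1 (-2.30, edgeR adjusted p = 0.00699) and at -0.10 without mucosa 3.

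The partner list described below held 6 genes for S100g, Vdr and others that handle calcium. Of these 4 could be tested in epithelial clusters, 3 lower and 1 higher in tumors, where 64.2% of all genes were called. Trpv5 and Calb1 were too low to test. Vdr, the vitamin D receptor, fell from 60.5, 69.0 and 93.5 CPM in mucosal epithelium to 5.54 to 16.7 CPM in tumors (log2 fold change -2.89, SE 0.27, edgeR adjusted p = 1.90e-06). Slc8a1, a sodium-calcium exchanger, fell by 4.96 (SE 0.56, edgeR adjusted p = 7.40e-06), and Atp2b1, a plasma membrane calcium pump, fell by 0.75 (SE 0.21, edgeR adjusted p = 0.00762). Trpv6, the apical calcium channel, was higher by 2.17 (SE 0.85, edgeR adjusted p = 0.0385), with tumors at 0.0421 to 7.28 CPM and mucosa at 0.127 to 0.984 CPM that overlapped. In absorptive epithelial-like cells Vdr (-2.10), Atp2b1 (-1.86) and Slc8a1 (-5.64) were again lower. That class joined clusters 11 and 14, filled unequally by tissue. The epithelial clusters were mostly tumor epithelial-like cells in tumors and other epithelium in mucosa. The part of this makeup in the differences of these genes was not tested.

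Partners of the members were read from a list of 27 genes. In all retained cells 17 of the 24 tested were called, 13 higher and 4 lower, and in epithelial clusters 17 of 23, 11 higher and 6 lower, both near the backgrounds of 70.7% and 64.2%. The largest in all cells were Ptgs2, the inducible cyclooxygenase (9.96 on the log2 scale), Cd33, a receptor proposed for S100a9 (7.28), and Itgam, the integrin subunit of myeloid cells (5.88). Among annexins Anxa1 rose in all cells (1.78), and Anxa6 rose by 1.83 and 3.15. Anxa2 was not called in either sum (0.47 and 0.44, edgeR adjusted p = 0.114 and 0.210). Ahnak, a large scaffold bound by S100a10 and annexin A2, rose by 1.02 and 1.22. In epithelium Plat, tissue plasminogen activator, rose by 6.50 from a low level. In plasma cell-like cells 8 of 14 were called, 7 of them lower, against 29.5% of genes called and 15.0% lower. Of the other S100 genes 5 of 7 were called in all cells (4 higher, 1 lower) and 5 of 5 tested in epithelium. S100a13, which lies between S100a1 and S100a14 on chromosome 3, was lower in tumor epithelium by 1.40 (SE 0.30, edgeR adjusted p = 0.00108), as was S100z by 1.69, whereas S100a2, S100a3 and S100a7a were higher.

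Across the 3 mice few members were called among the tumors. No member was called in all retained cells (background 2.62%) or in tumor epithelial-like cells (0.517%), although edgeR's unadjusted p was below 0.05 for 2 and 4 members, respectively. S100a6 was called in all retained cells without tumor 9 or 10 (edgeR adjusted p = 0.0338 and 0.0249) and in tumor epithelial-like cells without tumor 10 (0.0446), and S100a14 in all retained cells without tumor 9 (0.0490). S100a6 in all retained cells ran from 2831 to 3353 CPM in the 4 tumors of mouse A and from 4913 to 6927 CPM in the 4 of mouse C, and in epithelial clusters from 3247 to 4829 and from 6375 to 10309 CPM. It was likewise without overlap between these mice in C1q+ macrophage-like cells (484 to 683 and 1095 to 1440 CPM) and in dendritic cell-like cells (1244 to 1424 and 2486 to 3270 CPM). These ranges leave out mouse B. A tumor of that mouse had the lowest value of all tumors in all retained cells, in epithelial clusters and in dendritic cell-like cells (1217 CPM in the last). In neutrophil-like cells 1 of 9 members tested was called, S100a6, on a background of 11.1%. S100a6 in these cells was 6428 ± 251 CPM in mouse A (SD, n = 4 tumors), 6034 and 9447 CPM in the 2 tumors of mouse B and 10566 ± 543 CPM in mouse C (SD, n = 4), edgeR adjusted p = 0.0114. Every tumor of mouse C exceeded every tumor of mouse A. S100a8 ran the same way, at 62453 to 74436 CPM in mouse A, 66409 and 96642 CPM in mouse B and 90304 to 107410 CPM in mouse C (edgeR adjusted p = 0.0514), and was called without tumor 3, 9 or 10 (edgeR adjusted p = 0.0356, 0.0207 and 0.0181). Mouse C was 20 weeks old and mouse A 24 weeks old, so mouse and age cannot be told apart.

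**Figure D5:**
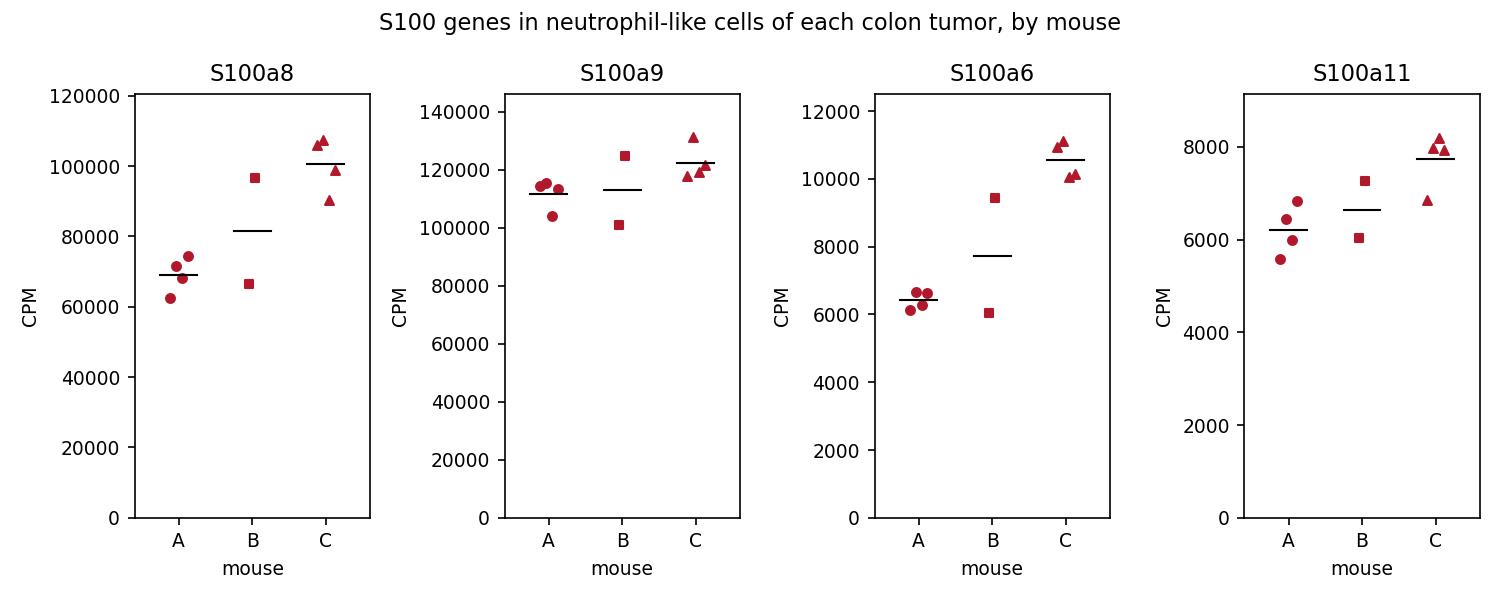
CPM of S100 genes in neutrophil-like cells of each tumor by mouse, with 1 point per tumor and a bar at the mouse mean. S100a6 lies at 6141 to 6652 CPM in mouse A and at 10046 to 11128 CPM in mouse C.

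The members tested but not called within a class are given here by their log2 difference, tumor over mucosa. In absorptive epithelial-like cells S100a6 was at 0.32 and S100a10 at -0.43 on the log2 scale (edgeR adjusted p = 0.475 and 0.105). S100a6 was called without mucosa 1, at 1.08 (edgeR adjusted p = 0.0208), and S100a10 without tumor 8, at -0.51 (0.0468). In goblet-like cells S100a11 was at 0.65 (edgeR adjusted p = 0.0742, and 0.0310 with DESeq2), and S100a6, S100a14, S100a10, S100a16 and S100a1 lay between -0.34 and 0.42. B cell-like cells gave S100a4 at 2.21 with an SE of 1.12 (edgeR adjusted p = 0.120), ranging over 1.31 to 3.94 in the alternatives without a call, and S100a6 at 0.22. NK or innate lymphoid-like cells gave S100a6 at -0.49, S100a11 at -0.05 and S100a10 at 0.22. In plasma cell-like cells S100a16 was at -1.54 (edgeR adjusted p = 0.103), called without mucosa 1 at -2.07 (0.0264) and ranging over -2.07 to -0.37 as each library was left out, and S100a14, S100a6, S100a1 and S100a4 lay between -0.70 and 0.88. In T cell-like cells S100a1 was at -0.92 (edgeR adjusted p = 0.106), S100a6 at 0.54, S100a10 at 0.25 and S100a11 at -0.02.

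The genes whose class pattern was most like that of each member were read from Pearson r of log2(CPM + 1) over 13 tumor classes and 5418 genes, without a test, since classes share libraries. S100a9 was closest to Retnlg (r = 0.996) and S100a8 to G0s2 (0.987), both neutrophil-rich genes, and S100a4 was closest to the chemokine receptor gene Ccr2 (0.964). S100a6 was closest to Anxa2 (0.933), while S100a10 was closest to Atp5h (0.954), Capn2 and then its scaffold partner Ahnak (0.931). S100a14 was closest to Tmem54, Krt19 and Itgb4 (each 0.997), S100a16 to Tmem54 (0.998), S100g to Gsta4 (0.998), S100a11 to Chp1 (0.967) and S100a1 to Cds1 (0.939). Among the members themselves S100a8 and S100a9 correlated at 0.941, S100a9 and S100a10 at -0.663, and S100a4 and S100a14 at -0.643.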

How the data were processed

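Processed 10x Genomics 3' v3.1 data of 13 libraries were used. The authors deposited UMI counts per gene and barcode (Cell Ranger 6.0.0 per the file headers and the submitters' processing notes, build mm10); the annotation release is not given in the sources used here. Replicate, tissue, mouse and age came from the labels, and no column of sample values was left unused. Barcodes with at least 500 UMIs, 200 genes and at most 25% mitochondrial UMIs were kept, and simulated-doublet scores removed 0.8% per 1000 barcodes. Counts were clustered in Python 3.11.15 (2000 variable genes, 30 components, 20 neighbours, leidenalg 0.10.2 at resolution 1), with S100 genes held out, giving 34 clusters. Clusters were named from marker lists; the rule was amended after the clusters were seen, which left an erythrocyte-led and a very shallow cluster unnamed. In all 4 clusters (1197 tumor and 4847 mucosal cells) were unnamed, among them cluster 9, led by Trgv2, Tcrg-C2 and Cd160 (434 tumor and 3899 mucosal cells), whose depth was 0.223 of its libraries' median.

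UMIs were summed per library and class (at least 20 cells) and tested with edgeR 4.0.16 (TMM, filterByExpr, quasi-likelihood, Benjamini-Hochberg, threshold 0.05) in R 4.3.3; the mouse effect used its F test and the class difference an interaction. DESeq2 1.42.0 was an alternative. Scripts were tested on simulated data. Members tested are described in each tumor against mucosa comparison, partners by the largest 3 changes and by the member described, and similar genes by the 3 highest r among genes with at least 50 CPM in a class. Genes or cells named beyond this rule, such as the cells with 10 or more S100a8 UMIs and single clusters of a class, were chosen after values were seen. Members and lists were chosen with earlier results of these data known. The tumors and mucosa of a mouse are paired by animal. Deviations of the mouse means from their tissue means correlated at 0.115 (mouse A), 0.0343 (B) and 0.083 (C) over genes in all cells and at 0.137, 0.0732 and 0.178, in the same order, in epithelium. Intervals and floors cover counting error only. Mean levels are over mice, each the mean of its tumors.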

Additional observations from a re-analysis of the deposited data

Results flagged for a closer look

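Of 76 sets of tumor values 17 had a highest tumor farther from the rest than Dixon's 95% limit. That limit assumes independent, normally distributed values, whereas these sets overlap and tumors share mice, so the count cannot be set against chance. Some flags rest on few cells, such as 20 goblet-like cells in tumor 8 and 38 NK or innate lymphoid-like cells in tumor 5. Tumor 10 of mouse B stood apart for S100a14 (368 CPM in all cells, next 242; 803 CPM in epithelial clusters, next 520), for S100a16 (289 CPM in all cells, next 165; 625 CPM in epithelial clusters, next 355; 351 CPM in tumor epithelial-like cells, next 244) and for S100a6 in plasma cell-like cells (169 CPM, median 37.7). It also had the most absorptive epithelial-like cells (483) and the fewest tumor epithelial-like cells (622) of the tumors. The part of this makeup was not tested. In tumor 7 S100g reached 95.4 CPM in absorptive epithelial-like cells, next 50.2. In goblet-like cells tumor 2 had 11151 CPM of S100a6 and 2227 CPM of S100a8 (medians 7251 and 566), and tumor 8 had 527 CPM of S100a14 (median 275).

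In lymphoid classes tumors 5 and 6 of mouse A stood apart. B cell-like cells had 79.3 CPM of S100a4 in tumor 5 (median 5.77) and 1151 CPM of S100a8 and 1945 CPM of S100a9 in tumor 6 (medians 244 and 403). NK or innate lymphoid-like cells had 1198 CPM of S100a8, 2050 CPM of S100a9 and 809 CPM of S100a11 in tumor 5 (medians 112, 145 and 504) and 67.9 CPM of S100a1 in tumor 6 (next 38.0). The neutrophil marker list had its highest values at 661 CPM in B cell-like and 953 CPM in NK or innate lymphoid-like cells of the tumors, and its part was not tested.

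The log2 difference, tumor over mucosa, was more positive in epithelial than in T cell-like sums for 3 members by the interaction test: S100a4 by 2.12, S100a16 by 2.07 and S100a11 by 1.12. For S100a16 it was -0.18 and not called in epithelium (edgeR adjusted p = 0.634), and -2.28 in T cell-like cells. On that test 21.5% of 15367 genes were called.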

How the results depend on the processing

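Of 42 calls of members in tumor against mucosa fits and the interaction, 32 were kept in every alternative on whole classes (normalization, DESeq2, no filter, cell filters, doublets kept, mouse summed or as a block, each library left out) and 28 also in the single clusters added later. With mouse as a block, paired by animal, 7 members were called in all cells and 7 in epithelium; S100a6 in epithelium (edgeR adjusted p = 0.0141) and S100a1 in T cell-like cells (0.0334) became called, S100g in absorptive (0.128) and S100a4 in goblet-like cells (0.0541) were lost, and no other call changed. Cluster 11 alone, added after seeing the data, gave 1587 genes and 3 members called in absorptive cells, S100a10 at 0.31. Cluster 8 alone, also added later, gave 1178 genes and 2 members called in T cell-like cells, where S100a4 was lost (0.77, 0.0729) and S100a16 was too low to test. The largest finer cluster of each class, also added later, gave 1115 genes called in B cell-like cells, with S100a6 at -0.32, and 908 in plasma cell-like cells, with S100a1 at -0.51. Under 10% mitochondrial UMIs S100a10 was 0.04 in epithelium and 2445 CPM in absorptive tumor cells. No filter on low counts gave 1158 genes in goblet-like cells and S100a11 at 0.04 in T cell-like cells. At Leiden resolution 2 absorptive levels in tumors were 21503 (S100a6), 4514 (S100a10), 1564 (S100a14), 1280 (S100a16) and 54.4 CPM (S100g). The cause was not tested.

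Leaving out 1 library, genes called ranged over 134 to 460 in goblet-like, 608 to 1157 in NK or innate lymphoid-like, 1741 to 2817 in plasma cell-like and 1265 to 2436 in T cell-like cells, and members called in the interaction over 2 to 5. Between mice they ranged over 5 to 980 genes and 0 to 2 members in all cells, 507 to 1489 and 1 to 2 in neutrophil-like, and 0 to 443 and 0 to 1 in tumor epithelial-like cells. Uncalled log2 differences that changed sign ranged over -0.39 to 0.08 (S100a16) and -1.51 to 0.73 (S100g) in epithelium, -0.14 to 0.73 (S100a6) in B cell-like, -0.52 to 0.15 (S100a16) in goblet-like, -0.79 to 0.25 (S100a6) and -0.27 to 0.42 (S100a11) in NK or innate lymphoid-like, -0.09 to 0.17 (S100a1) and -0.44 to 0.06 (S100a6) in plasma cell-like, -0.13 to 0.12 (S100a11) in T cell-like cells, and -0.98 to 1.36 (S100a9) and -2.73 to 3.74 (S100g) in the interaction. With 3 mucosa libraries, 1 per mouse, each mucosa sample weighs heavily, and depth limits S100a14, S100a16 and S100g in immune classes of the tumors, where their means were at most 5.48 CPM.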
